A study of Rattus norvegicus with 12 samples.

Results

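The short circRNAs of Thsd7b (rno_circRNA_004123), Galnt9 (rno_circRNA_003813) and Ppp1r16b (rno_circRNA_010393), were followed across 12 microarrays of rat orbitofrontal cortex (OFC). They were 3 of the 14145 circRNAs with a probe on the array and 3 of the 75 circRNAs of the study's list of heroin-associated circRNAs used here. The members were chosen by their host gene name in that list and by a span under 500 bp between the ends joined in the circle. The list itself was selected on heroin against saline in these same arrays, by a change of more than 1.5-fold with p below 0.05 before adjustment, so every heroin against saline value below is a description and carries no test. Within that list, 5 circRNAs spanned under 500 bp, and the other 2 came from Slit1 and Grin2b.

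Circular RNAs arise when a splice donor is joined back to an acceptor that lies upstream of it, which leaves a closed loop without a cap or a poly-A tail. RNase R degrades linear RNA and spares such loops, and neurons are known to be rich in them. Thsd7b encodes a membrane protein with thrombospondin type 1 repeats. Galnt9 encodes a brain-expressed polypeptide N-acetylgalactosaminyltransferase of the family that starts mucin-type O-glycosylation. Ppp1r16b, also called TIMAP, encodes an ankyrin-repeat subunit that targets protein phosphatase 1. The array measured the loop and not the mRNA or the protein of these genes.

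All animals were adult male Sprague Dawley rats, aged 8 weeks on arrival, with 3 rats per group and 1 rat per array. The heroin group carried a jugular catheter and self-administered heroin at 0.03 mg/kg per infusion for 6 h a day over 10 days, and the saline group carried a catheter and had equal sessions with saline. The sucrose group had no surgery and worked for 45 mg chocolate-flavored sucrose pellets for 2 h a day over 10 days. The naive group had no surgery and was handled and kept in the chamber for 2 h a day over 10 days with no reward on offer. Tissue was taken straight after the last session, so the last intake and the days before it cannot be told apart. Catheter surgery and session length were shared by heroin and saline and differed between these and the sucrose and naive groups. The paper also describes single housing after surgery and food restriction during self-administration for catheterized rats. Whether these held for the sucrose and naive rats is not stated there.

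Per array, 95.7% to 98.6% of the circRNA probes had a signal well above background, and the number of arrays limits the precision of every value. Levels are background-subtracted intensities on the log2 scale, quantile-normalized over the 12 arrays, and the 13979 circRNAs well above background on at least 3 arrays were tested. The scanner headers placed the heroin arrays and saline 1 in row 1 of scan 1, saline 2, saline 3, sucrose 1 and sucrose 2 in row 2 of scan 1, and sucrose 3 and the naive arrays in row 1 of scan 2. None of 16 markers of neurons, glia and vessels was among the 29 named probes for linear transcripts, so the labelled tissue could not be checked against markers. In tissue punches, fewer cells of a type and less RNA per cell cannot be told apart.

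The probes are shown because they are all that the array reads of each circle: 60 bases laid over the back-splice junction. Capitals in the Thsd7b probe mark the run found next to a start of that gene in RefSeq, and capitals in the Galnt9 probe mark a miRNA seed match. The Ppp1r16b probe held neither.
Thsd7b rno_circRNA_004123: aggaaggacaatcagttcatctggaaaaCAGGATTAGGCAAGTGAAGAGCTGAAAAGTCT
Galnt9 rno_circRNA_003813: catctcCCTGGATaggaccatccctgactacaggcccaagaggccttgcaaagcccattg
Ppp1r16b rno_circRNA_010393: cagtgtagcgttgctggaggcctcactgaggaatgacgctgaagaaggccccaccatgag

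No pair of these probes shared a run longer than 7 bases on either strand, so they are unlike one another in sequence. GC content was 41.67% for the Thsd7b probe, 56.67% for Galnt9 and 58.33% for Ppp1r16b.

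The study's annotation placed the Thsd7b circRNA on chromosome 13 from 51235474 to 51235647 on the plus strand, a span of 173 bp called sense overlapping, that is, on the strand of the gene but not made of whole annotated exons. The Galnt9 circRNA lay on chromosome 12 from 53887530 to 53887711 on the minus strand, with a span of 181 bp called exonic. The Ppp1r16b circRNA lay on chromosome 3 from 160420794 to 160421143 on the minus strand, with a span of 349 bp, also called exonic. No build is stated for these positions. The scanner headers name rn4 as the build of the array design, and whether the positions use it was not tested. RefSeq (GRCr8) has Ppp1r16b on the plus strand, and of 44 circRNAs of the list whose gene has a strand in that table, 4 including this one were annotated on the other strand. Strand differences between builds were not tested. Because the probe covers only the junction, the spliced length of each circle was not measured.

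Among 33469 RefSeq windows around gene starts, searched on both strands for runs of at least 20 bases, the Thsd7b probe matched 1 window, that of Thsd7b, and the Galnt9 and Ppp1r16b probes matched 0. Bases 29 to 60 of the Thsd7b probe, 32 bases, lie on chromosome 13 from 43458308 to 43458339 of GRCr8 on the plus strand and end 5 bases before the start used for that window. Bases 1 to 28 are not in the window, so the probe joins a stretch found there to one from elsewhere. The start used for the window lies inside the longer range that RefSeq gives for the gene as a whole. The genomic stretch up to that start, with the shared run in capitals, is shown to let the 2 be set side by side.
Thsd7b, GRCr8 chr13:43458275-43458344, plus strand: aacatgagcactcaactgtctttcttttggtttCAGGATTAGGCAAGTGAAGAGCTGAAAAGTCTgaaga

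The study's annotation listed 5 miRNAs for each circRNA, 15 in all, and no miRNA was listed for more than 1 of the 3. RefSeq held a mature sequence for 13 of the 15, and these had 13 different seeds. For the Thsd7b circRNA the listed miRNAs were rno-miR-494-5p, rno-miR-185-5p, rno-miR-214-3p, rno-miR-761 and rno-miR-6324. For Galnt9 they were rno-miR-674-5p, rno-miR-759, rno-miR-33-5p, rno-miR-181b-1-3p and rno-miR-3561-3p. For Ppp1r16b they were rno-miR-20b-3p, rno-miR-1956-3p, rno-miR-762, rno-miR-93-3p and rno-miR-3593-5p. A probe shows only part of a circle, and in these 60-base stretches the reverse complement of a seed, bases 2 to 8 of the miRNA, was found for 1 miRNA. This was rno-miR-3561-3p, whose site CCTGGAT stands at bases 7 to 13 of the Galnt9 probe. On the other strand, 0 seeds matched. Of all 75 probes of the list, 1 (1.33%) held CCTGGAT. The match is a description of letters, and binding was not measured. The mature miRNA is printed with its seed in capitals.
rno-miR-3561-3p, GRCr8 chr7:22195172-22195192, minus strand: uAUCCAGGguagacacucaga

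The 3 circRNAs did not share one pattern over the 4 groups. The circRNA of Thsd7b stood highest in the saline group, that of Ppp1r16b lowest in the heroin group, and that of Galnt9 spread over both ends. Each was well above background on 12 of 12 arrays, and no spot of theirs was saturated or marked as an outlier.

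The circRNA of Thsd7b had normalized log2 intensities of 5.28, 5.03 and 5.17 on the saline arrays. These were the highest of the 12 arrays. On the heroin arrays the values were 3.90, 4.33 and 4.65, on the sucrose arrays 3.43, 4.18 and 4.07, and on the naive arrays 4.62, 4.61 and 4.02. The heroin, sucrose and naive arrays overlapped one another, and sucrose 1 was the lowest of all. The group means were 4.29 ± 0.37 for heroin, 5.16 ± 0.12 for saline, 3.89 ± 0.40 for sucrose and 4.41 ± 0.34 for naive (SD, n = 3 each). In order from the lowest mean these run sucrose, heroin, naive, saline, and neighbours among the lower 3 differed by less than the larger SD of the pair. This probe was dim: its spots were 1.67 to 3.72 times their local background, and its background-subtracted signal ran from 14.6 to 41.9.

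The circRNA of Galnt9 had normalized log2 intensities of 10.16, 9.89 and 10.16 on the heroin arrays and of 10.50, 10.98 and 11.01 on the saline arrays. The sucrose arrays, at 10.61, 10.55 and 10.47, fell between these groups except that sucrose 1 and sucrose 2 were above saline 1. The naive arrays, at 10.04, 10.23 and 10.84, reached from among the heroin arrays to above the sucrose arrays. Group means were 10.07 ± 0.16 for heroin, 10.37 ± 0.41 for naive, 10.54 ± 0.07 for sucrose and 10.83 ± 0.28 for saline (SD, n = 3 each). Each step between neighbours in that order was smaller than the larger SD of the pair, apart from sucrose to saline, where the step was about equal to the SD of saline. The probe was bright against its surroundings, at 49.8 to 153 times local background.

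The circRNA of Ppp1r16b had normalized log2 intensities of 7.36, 6.95 and 7.11 on the heroin arrays, the lowest of the 12. The saline arrays were at 7.62, 8.56 and 8.40, and saline 1 was the next lowest after the heroin arrays. The sucrose arrays were at 8.36, 8.31 and 8.91 and the naive arrays at 8.29, 8.21 and 8.18, so each sucrose array was above each naive array, by a narrow margin except for sucrose 3. Group means were 7.14 ± 0.21 for heroin, 8.19 ± 0.50 for saline, 8.23 ± 0.06 for naive and 8.53 ± 0.33 for sucrose (SD, n = 3 each). In this order, saline, naive and sucrose differed from their neighbours by less than the larger SD of the pair, and heroin stood apart from them. Its spots were 7.13 to 32.6 times local background.

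**Figure D1:**
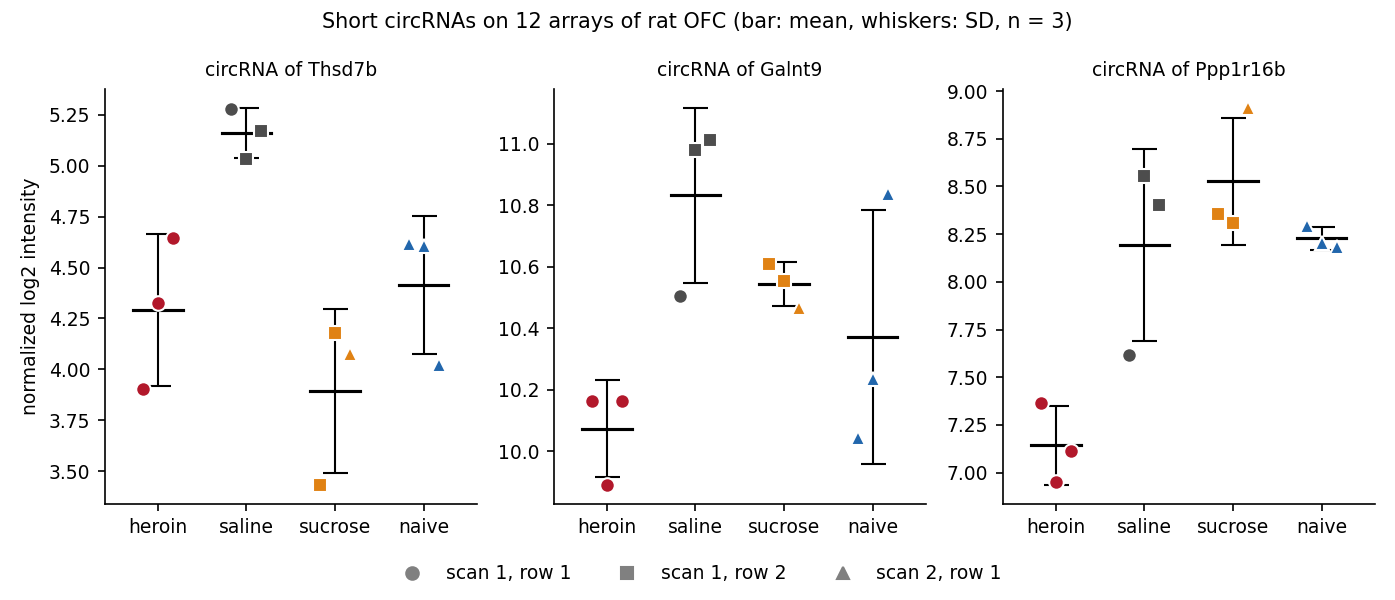
Normalized log2 intensity (y axis) of the circRNAs of Thsd7b, Galnt9 and Ppp1r16b on each array, by group (x axis), with the group mean (bar) and SD (whiskers, n = 3); the point's shape gives the scan and the row on the slide, and each panel has its own y range. Saline arrays are highest for Thsd7b (5.03 to 5.28), heroin arrays lowest for Ppp1r16b (6.95 to 7.36), and saline 1, the saline array in the row of the heroin arrays, is the lowest saline array for Galnt9 and Ppp1r16b.

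Heroin against saline, the comparison that selected the list, gave log2 differences of -0.87 for Thsd7b (SE 0.25), -0.76 for Galnt9 (SE 0.21) and -1.05 for Ppp1r16b (SE 0.24). The heroin level was thus 0.548, 0.591 and 0.484 of the saline level. For all 3, every heroin array was below every saline array, as it was for 6.6% of the 13979 circRNAs tested. Past the study threshold and lower after heroin in limma were 1.5% of the circRNAs tested. Both shares stand as background, and nothing is read from them, since this contrast chose the members.

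In the authors' deposited log2 values, on which the list was made, the saline mean was 1.53 times the heroin mean for Thsd7b, 1.69 times for Galnt9 and 1.94 times for Ppp1r16b. The Thsd7b circRNA was near the edge of the rule. Among probes that met its p threshold and were lower after heroin, the nearest folds inside were 1.505 (ASCRPR009165), 1.509 (ASCRPR002413) and that of Thsd7b, and the nearest outside were 1.497 (ASCRPR000588) and 1.492 (ASCRPR006149).

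The row on the slide moved with this contrast. Within row 1, which held the 3 heroin arrays and saline 1, the heroin mean differed from saline 1 by -0.99 for Thsd7b, -0.43 for Galnt9 and -0.47 for Ppp1r16b on the log2 scale. The difference was thus larger within the row for Thsd7b and smaller for the other circRNAs. Row 2 held no heroin array, so it gave no value. Without saline 1, the differences were -0.81, -0.92 and -1.34 in the same order. For Thsd7b the background correction mattered as well: with normexp and an offset of 50, the difference was -0.37, an offset larger than any background-subtracted signal of that probe.

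The sucrose and naive arrays were not used to select the list, and none of the circRNAs of Thsd7b, Galnt9 and Ppp1r16b passed the test between them. The spread behind that test was estimated over all 12 arrays, heroin and saline included. The log2 difference was -0.52 for Thsd7b (95% interval -1.05 to 0.01; limma, Benjamini-Hochberg adjusted p = 0.451). For Galnt9 it was 0.17 (95% interval -0.28 to 0.63, limma adjusted p = 0.771). For Ppp1r16b it was 0.30 (95% interval -0.22 to 0.82, limma adjusted p = 0.634). In a fit of the 6 sucrose and naive arrays alone, the limma adjusted p was 0.634 for Thsd7b, 0.837 for Galnt9 and 0.689 for Ppp1r16b. Missing the threshold does not show that sucrose and naive rats were alike, and the intervals give the sizes of difference that these arrays leave possible.

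The exact two-sided permutation test of 3 against 3 arrays, which cannot go below p = 0.1, gave p = 0.3 for Thsd7b, 0.5 for Galnt9 and 0.1 for Ppp1r16b. Over all 13979 circRNAs, 0 (0%) passed an adjusted p below 0.05 in limma, the smallest adjusted p being 0.0785, and 1558 (11.1%) stayed below 0.05 before adjustment. Those counts were 0 and 981 when the methods' t-test was run instead. Every sucrose array was above every naive array for 5.14% of circRNAs, of which Ppp1r16b was 1.

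Sucrose 3 was the only sucrose array on scan 2. Within scan 2, sucrose 3 minus the mean of the naive arrays was -0.34 for Thsd7b, 0.10 for Galnt9 and 0.68 for Ppp1r16b on the log2 scale. Without sucrose 3, the Ppp1r16b difference between sucrose and naive was 0.11. Most of the difference of 0.30 for Ppp1r16b thus came from 1 array.

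The remaining contrasts reuse arrays that chose the list, so their values stand side by side with no test. Saline minus naive was 0.75 for Thsd7b, 0.46 for Galnt9 and -0.04 for Ppp1r16b on the log2 scale, and saline and naive arrays lay on different scans. Heroin minus naive was -0.12, -0.30 and -1.08 in the same order. The heroin arrays thus sat near the naive arrays for Thsd7b and well below them for Ppp1r16b. Heroin and naive arrays also lay on different scans, so group and scan cannot be told apart in these values. Heroin minus sucrose was 0.40 for Thsd7b, -0.47 for Galnt9 and -1.38 for Ppp1r16b. For Thsd7b the largest of these differences was sucrose minus saline, at -1.27.

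**Figure D2:**
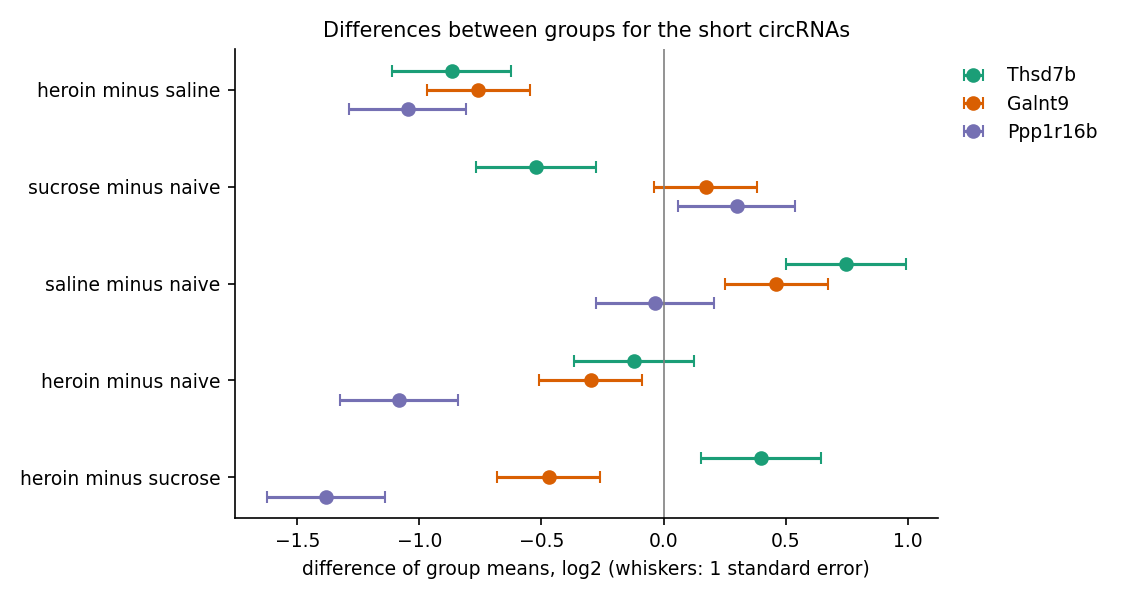
Difference of group means on the log2 scale (x axis) for 5 contrasts (y axis) and the circRNAs of Thsd7b, Galnt9 and Ppp1r16b; whiskers are 1 standard error of the limma fit, and contrasts share arrays. All 3 lie left of 0 for heroin minus saline, which selected them, while for heroin minus naive Ppp1r16b is at -1.08 and Thsd7b at -0.12. Heroin and saline arrays lay on another scan than the naive arrays.

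**Figure D3:**
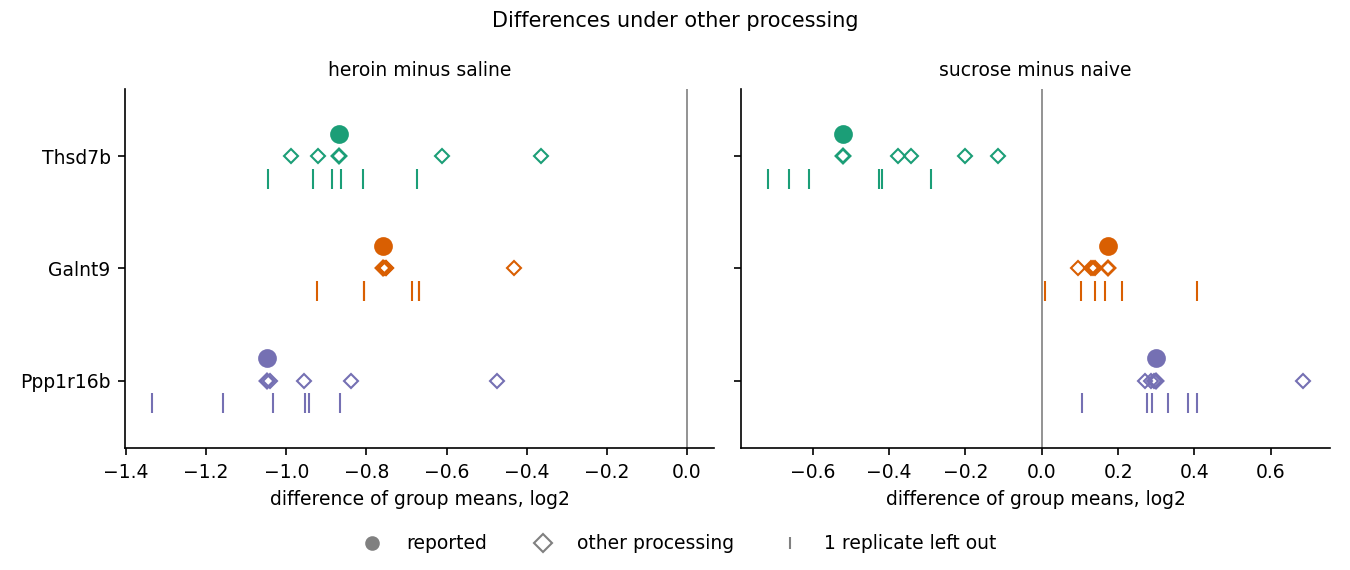
Log2 difference of group means (x axis) for heroin minus saline and sucrose minus naive under each processing alternative; filled circles are the reported values, open diamonds other processing, and ticks fits with 1 replicate left out. No value crosses 0; for heroin minus saline the open diamond nearest 0 is normexp for Thsd7b (-0.37) and the row as a block for Galnt9 (-0.43) and Ppp1r16b (-0.47).

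The other circRNAs of the list that span under 500 bp came from Slit1, which encodes a secreted axon guidance ligand, and Grin2b, which encodes an NMDA receptor subunit. The circRNA of Slit1 (rno_circRNA_001230, 383 bp) was at 8.96, 8.17 and 8.27 on the heroin arrays, 9.17, 9.58 and 9.08 on the saline arrays, 9.10, 8.55 and 9.30 on the sucrose arrays and 8.28, 8.09 and 8.47 on the naive arrays. Its naive arrays overlapped the heroin arrays, unlike those of Ppp1r16b. The short circRNA of Grin2b (rno_circRNA_011733, 429 bp) was at 7.08, 6.82 and 6.74 after heroin, 7.46, 8.16 and 8.13 after saline, 8.32, 8.13 and 8.37 after sucrose and 7.97, 7.55 and 7.78 in naive rats. Its heroin arrays were the lowest of the 12, as for Ppp1r16b.

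Sucrose minus naive was 0.70 on the log2 scale for Slit1 (limma adjusted p = 0.379) and 0.51 for the short Grin2b circRNA (limma adjusted p = 0.397). In the circRNAs of Ppp1r16b, Slit1 and short Grin2b, every heroin array was below every saline array and every sucrose array above every naive array. The heroin side of it was fixed by the choice of the list, so the background is the 922 circRNAs with that heroin side, of which 5.53% also had every sucrose array above every naive array. Among listed circRNAs with that heroin side, 3 of 5 spanning under 500 bp, 0 of 4 spanning from 500 to under 1000 bp and 2 of 32 longer ones had the sucrose side as well. No test was run on these counts, and whether the heroin and sucrose sides differ was not tested. Every heroin and naive array lay in row 1 of its scan, and row 2 held saline and sucrose arrays only. Row and group thus cannot be fully told apart in this pattern. By qPCR, the paper found no significant heroin effect on the Slit1 circRNA in males or in females. The paper lists no assay of the Ppp1r16b or short Grin2b circRNAs, and found another Grin2b circRNA (rno_circRNA_011731) higher after heroin in males. Over the 9 circRNAs of the list that span under 1000 bp, sucrose minus naive was above 0 for 8 and below 0 for 1, that of Thsd7b, with a median of 0.17. Over all circRNAs tested the median was -0.01 and 51.6% were below 0. Of the 9, 2 had an unadjusted p below 0.05 and 0 an adjusted p below 0.05 in limma. Among the 33 longer circRNAs of the list that were lower after heroin, 20 were above 0 and 13 below, with a median of 0.13, and 5 had an unadjusted p below 0.05 in limma.

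**Figure D4:**
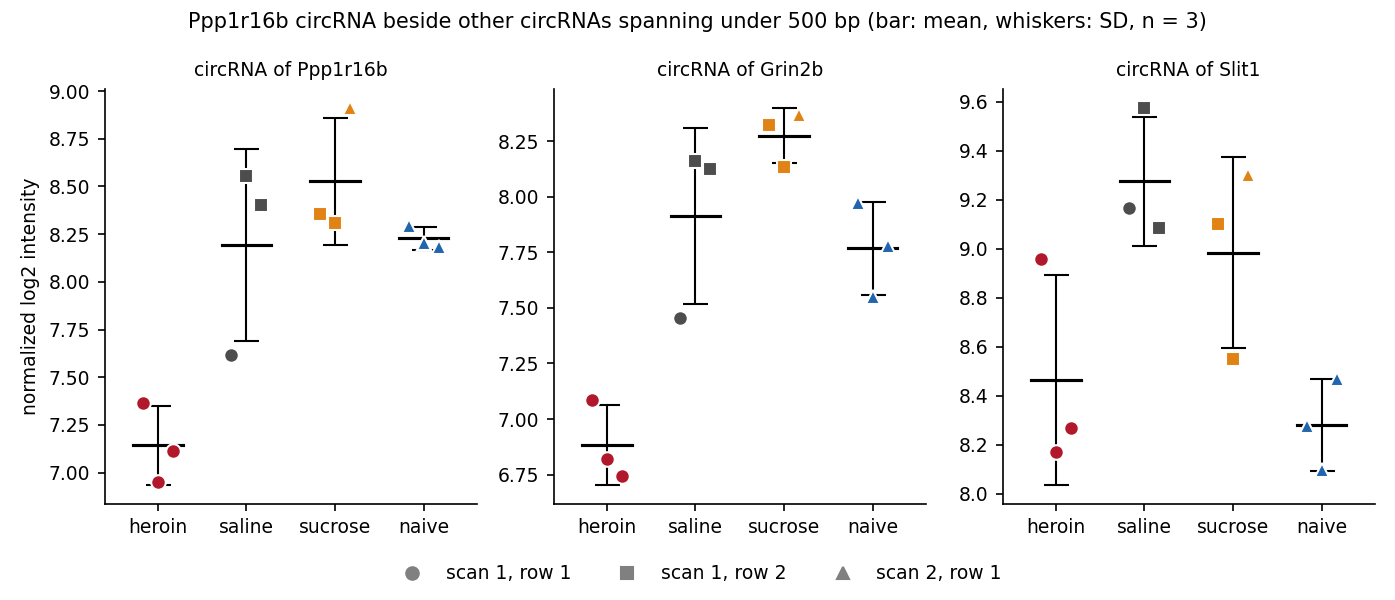
Normalized log2 intensity (y axis) on each array by group (x axis) for the circRNAs of Ppp1r16b, Grin2b (the one spanning 429 bp) and Slit1, with group mean (bar) and SD (whiskers, n = 3); shapes give scan and row as in the legend, and each panel has its own y range. Sucrose arrays are above naive arrays in each panel; the naive arrays of Slit1 (8.09 to 8.47) overlap its heroin arrays, while those of Ppp1r16b (8.18 to 8.29) do not.

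Over the 12 arrays, the levels of Galnt9 and Ppp1r16b had a Pearson correlation of 0.62 (0.37 within groups, that is, after taking off group means). For Thsd7b it was 0.21 with Galnt9, which turned to -0.55 within groups, and -0.05 with Ppp1r16b (-0.12 within groups). These points share arrays and normalization, and the correlations are descriptions only. By the correlation over all 12 arrays, group differences included, the circRNA most like Ppp1r16b was the short Grin2b circRNA, with r = 0.958 (0.833 within groups). The next were Anks1b (rno_circRNA_015168) at 0.948, the probes ASCRPR001965 and ASCRPR003574 at 0.948 and 0.944, and Anks1b (rno_circRNA_015171) at 0.937. Of these 5, ASCRPR001965 had a higher within-group value, 0.909, than the short Grin2b circRNA. Ppp1r16b, Grin2b and Anks1b were all selected on the same heroin against saline difference, which enters r. Anks1b encodes an ankyrin-repeat scaffold of the synapse, and these 2 circRNAs of it are on the same heroin list as Ppp1r16b.

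For Galnt9 the 5 likest were the probes ASCRPR012408 (r = 0.895), ASCRPR001700 (0.887), ASCRPR003571 (0.831), ASCRPR001118 (0.822) and ASCRPR013700 (0.805). For Thsd7b they were ASCRPR005856 (r = 0.952), ASCRPR011222 (0.927), ASCRPR013135 (0.924), ASCRPR013167 (0.914) and ASCRPR009352 (0.914). None of these 10 is on the heroin list used here, and no gene name was given for them. A highest value among 13979 probes is large by selection, and it says nothing of shared function.

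**Figure D5:**
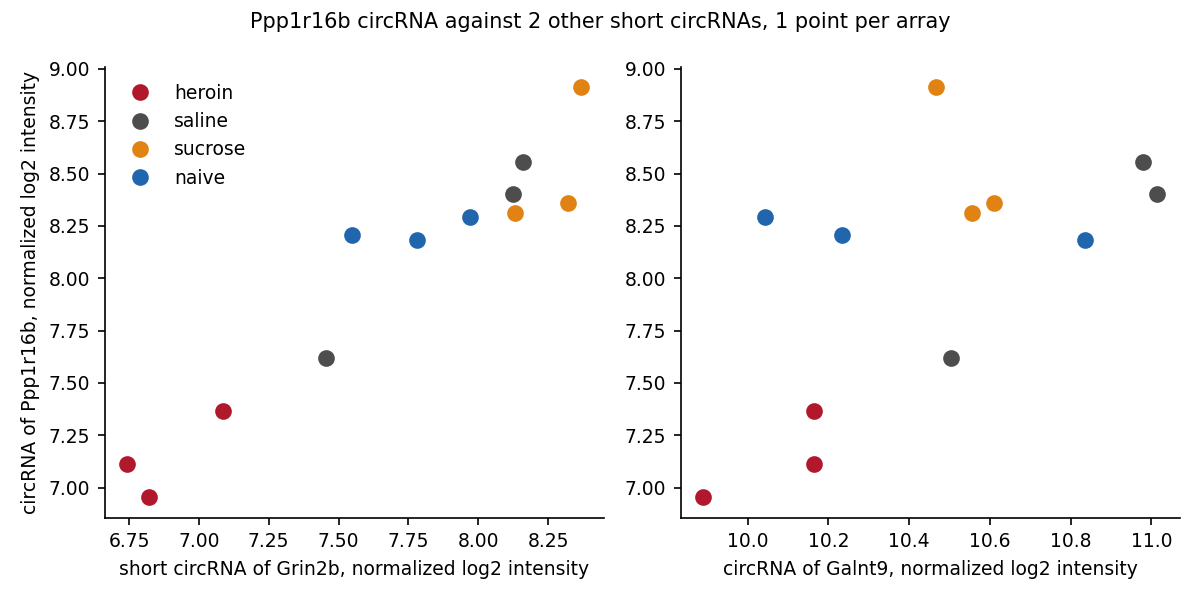
Normalized log2 intensity of the Ppp1r16b circRNA (y axis) against that of the short Grin2b circRNA (left x axis) and the Galnt9 circRNA (right x axis), 1 point per array, coloured by group. Points run along a line on the left (r = 0.958, heroin at the low end with saline 1 next), and scatter more on the right (r = 0.62).

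Genes of the pathways around the hosts could be followed only where a name was given. Names were given for circRNAs among the 75 of the heroin list and for 29 linear probes. Family members among the other circRNAs of the array could not be found. Of 22 GalNAc transferases and related enzymes and of 12 protein phosphatase 1 subunits, 1 each was named, Galnt9 and Ppp1r16b themselves. Of 17 proteins with thrombospondin type 1 repeats, 2 were named, Thsd7b and Unc5d, a netrin receptor. The Unc5d circRNA (rno_circRNA_006155, 78934 bp) went the other way in the contrast that selected the list, at 7.31 ± 0.18 after heroin and 6.52 ± 0.06 after saline (SD, n = 3 each), and its sucrose and naive means were 6.92 and 6.91. No change between sucrose and naive passed the test for it (difference 0.00, limma adjusted p = 0.997).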

How the data were processed

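OFC RNA of 12 rats was digested with RNase R, labelled with Cy3 and read on 1-colour arrays. The authors deposited the intensity of each spot from Agilent Feature Extraction 11.0.1.1, not yet normalized, and a table of log2 values they had normalized. Here the background-subtracted intensities of 14145 circRNA probes were log2 transformed and quantile-normalized across the 12 arrays, leaving out 9 outlier spots. The filter required a signal well above background on at least 3 arrays and kept 13979 probes. These were fitted in limma 3.58.1 (R 4.3.3), with 4 group means and Benjamini-Hochberg adjustment. The fit was also run on simulated data with 200 changed circRNAs, and the share it recovered is not given here. The methods name 8 samples in one place; all 12 arrays were used.

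The members, lists and tests were chosen with earlier results of these data known. Values are given for the members, for the other listed circRNAs under 500 bp and for the 5 probes most correlated with each member; other listed circRNAs under 1000 bp are summarized, and Unc5d is named from a list of related genes. Host genes, spans, probe sequences and miRNA names are those of the study's annotation, of which 75 circRNAs were used here; other sequences are from RefSeq (GRCr8). A planned search of host proteins was not run. Alternatives were the 75th percentile scaling, normexp, the deposited log2 values, other filters, only the 6 arrays compared, the methods' t-test, replicate number, scan or row as a block, and each replicate left out. Nothing in the labels ties replicate numbers across groups: deviations of same-numbered arrays correlated at -0.20 to -0.04.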

Additional observations from a re-analysis of the deposited data

Results flagged for a closer look

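In 3 of the 5 circRNAs spanning under 500 bp, every heroin array was below every saline array while every sucrose array was above every naive array. Heroin minus saline, with sucrose minus naive taken off, was -1.35 on the log2 scale for Ppp1r16b (rno_circRNA_010393), -1.51 for Slit1 (rno_circRNA_001230) and -1.54 for the short Grin2b circRNA (rno_circRNA_011733). For comparison, this value was -0.35 for Thsd7b and -0.93 for Galnt9, whose sucrose and naive arrays overlapped. Every heroin and naive array lay in row 1 of its scan. Row 2 held saline 2, saline 3, sucrose 1 and sucrose 2, so row and group cannot be fully told apart here. Within row 1 of scan 1, the heroin mean minus saline 1 was -0.47 for Ppp1r16b, -0.70 for Slit1 and -0.57 for short Grin2b. Within scan 2, sucrose 3 minus the naive mean was 0.68, 1.02 and 0.60 in the same order. Differences far apart were also found without the pattern. Zbtb8b (rno_circRNA_012827, 786 bp) was at -1.27 for heroin minus saline and 0.73 for sucrose minus naive, and its sucrose and naive arrays overlapped. Myh10 (rno_circRNA_002220), with such an overlap too, was at -0.95 and 0.38. Of 32 listed circRNAs of 1000 bp or more with the same heroin side, 2 showed the pattern too, at -2.08 for a longer Grin2b circRNA (rno_circRNA_011734) and -1.25 for Slc24a2 (rno_circRNA_012370), both named after their values were seen. Of all 922 circRNAs with every heroin array below every saline array, 5.53% had every sucrose array above every naive array. These differences were not tested, since heroin against saline had selected the list. The paper's qPCR did not show the lower heroin side for Slit1 or Slc24a2. There, the Slit1 circRNA had no significant heroin effect in either sex, with an upward trend in females. Neither Grin2b circRNA with the pattern is among the paper's qPCR assays. Another one of the list (rno_circRNA_011731), at -0.81 for heroin minus saline here, was assayed. By qPCR it was higher after heroin in males and in both sexes combined, not in females alone. The Slc24a2 circRNA was higher after heroin in females and in both sexes combined, not in males alone, and had no significant change after sucrose. The paper's text names rno_circRNA_012370 for that assay and its primer list rno_circRNA_012366. Which of these circRNAs was measured is thus uncertain.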

How the results depend on the processing

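Of 15 alternatives, 5 cannot move a difference of group means; under the other 10, no difference of the circRNAs of Thsd7b, Galnt9 and Ppp1r16b changed sign, in heroin minus saline or sucrose minus naive. Over the 15, no adjusted p for sucrose against naive fell below 0.05 (range 0.227 to 0.998). Heroin minus saline was -0.37 for Thsd7b with normexp, whose offset exceeds that probe's signals, and -0.43 for Galnt9 and -0.47 for Ppp1r16b with the row as a block, which compares within row 1. With 1 replicate left out it ran from -1.05 to -0.67 for Thsd7b, -0.92 to -0.67 for Galnt9 and -1.34 to -0.87 for Ppp1r16b. Sucrose minus naive then ran from -0.72 to -0.29, 0.0083 (without naive 1) to 0.41 (without naive 3), and 0.11 (without sucrose 3) to 0.41, and was 0.68 for Ppp1r16b with the scan as a block. For Thsd7b, reported at -0.52, sucrose minus naive also moved with the processing. It was -0.11 with normexp, -0.20 in the deposited values and -0.38 with the 75th percentile scaling.

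The count past the study threshold and lower after heroin, 209, was 53 with normexp, 75 in the deposited values, 103 by the methods' t-test, 368 with the row as a block and 163 to 407 with 1 replicate left out (407 without heroin 3). The unadjusted count for sucrose against naive, 1558, was 981 by the methods' t-test and 874 (without naive 1) to 2602 (without sucrose 3) with 1 replicate left out, and 1003 without sucrose 1. The adjusted count of 0 became 2 with normexp, 3 in the deposited values and 11 without sucrose 3, with a range of 0 to 11 over replicates left out. The causes of these moves in counts were not tested. With the replicate block the counts were 206 and 1342, and it changed no call for the 3 circRNAs. The Thsd7b probe was at 1.67 to 3.72 times local background.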
